A study of Mus musculus with 10 samples.

Results

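The genes described here are 10 chemokine ligands read in mouse splenic macrophages: Ccl2, Ccl3, Ccl4, Ccl5, Ccl6, Ccl9, Ccl24, Cxcl2, Cxcl10 and Cxcl16. They were chosen by symbol, with earlier results of these data known, and each matched 1 Ensembl identifier among the 55414 in the count table. All 10 had enough reads to be tested, as did 14669 genes in total. The data are RNA sequencing read counts from 10 libraries of polyadenylated RNA. Of these, 5 libraries came from macrophages labelled Fpr2KO, taken from Fpr2-/- mice, and 5 from wild-type mice labelled C57BL/6N, called WT here. Fpr2 encodes formyl peptide receptor 2, a myeloid receptor whose ligands include formylated bacterial peptides and annexin A1. Cells of both groups were isolated from spleen on magnetic beads by their F4/80, a surface marker of mouse macrophages. The labels do not give the part of Fpr2 removed, the strain of the knockout line, or the age and sex of the mice. They do not say whether replicates came from separate animals, and p-values therefore cover only the spread among the libraries, part of which may be technical.

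Chemokines are small secreted proteins that bind G protein-coupled receptors on leukocytes and guide their movement along a concentration gradient. They are classed by the spacing of their first cysteines, adjacent in CC chemokines (gene symbols Ccl) and separated by a single residue in CXC chemokines (Cxcl). In macrophages many of them are induced through NF-kB by microbial or tissue damage signals, and others, such as Cxcl10, through interferons. The stretches of coding sequence around the cysteine motif show how the classes differ. They are printed 5′ to 3′ from the GENCODE M21 transcripts of GRCm38, with the codons of the first cysteine pair of the motif in capitals, for 5 CC ligands and 2 CXC ligands on which the results turn.
Ccl2: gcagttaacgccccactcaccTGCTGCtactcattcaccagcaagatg
Ccl3: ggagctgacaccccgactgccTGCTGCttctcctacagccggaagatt
Ccl4: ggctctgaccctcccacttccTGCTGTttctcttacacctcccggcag
Ccl6: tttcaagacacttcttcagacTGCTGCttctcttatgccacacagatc
Ccl9: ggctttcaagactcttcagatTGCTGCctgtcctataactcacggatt
Cxcl2: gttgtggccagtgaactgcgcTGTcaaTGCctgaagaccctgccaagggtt
Cxcl10: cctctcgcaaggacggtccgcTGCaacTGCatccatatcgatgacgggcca
In Ccl3 the cysteines are codons 34 and 35, in Cxcl2 they are codons 36 and 38, and in Cxcl10 codons 30 and 32.

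The ligand genes lie on 2 chromosomes, with coordinates given on GRCm38 from GENCODE M21. Ccl5 (83525778 to 83530518), Ccl9 (83572919 to 83578636), Ccl6 (83587882 to 83593087) and Ccl3 (83647844 to 83649355) are on the minus strand of chromosome 11, and Ccl4 (83662584 to 83664683) follows on the plus strand. Ccl3 and Ccl4 are separated by 13228 bases. Ccl2 (82035571 to 82037453, plus strand) and Cxcl16 (70453983 to 70459984, minus strand) are also on chromosome 11. Cxcl2 (90903871 to 90905938, plus strand), Cxcl10 (92346638 to 92348889, minus strand) and Ccl24 (135569937 to 135573049, minus strand) are on chromosome 5. Between 0% (Ccl2, Ccl3, Ccl4) and 18.5% (Cxcl16) of the 31-base sequences of these genes occur in another gene. For Cxcl16 the shared sequence is that of Zmynd15, which overlaps it on the opposite strand and had 421 reads over the Fpr2KO libraries and 371 over the WT libraries. For Cxcl2 the share is 7.59%, with Cxcl3. The strand setting of the counting is not given, so reads in such overlaps cannot be told apart.

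The libraries held between 15865820 and 19060188 counts each. Fpr2 had 0 reads in the Fpr2KO libraries and 1983 over the WT libraries, between 19.2 and 33.6 CPM (counts scaled to the TMM-adjusted library size). All 18 macrophage markers were read in both groups. Their summed level was 10060 to 12910 CPM in Fpr2KO and 10090 to 13080 CPM in WT. The isolates also held transcripts of other cells. Neutrophil markers summed to 594.9 to 1061 CPM in Fpr2KO and 1027 to 1675 CPM in WT. Classical monocyte markers summed to 1119 to 1386 CPM in Fpr2KO and 1483 to 2004 CPM in WT, ranges that did not overlap. B cell markers summed to 13910 to 35090 CPM in Fpr2KO and 20480 to 44470 CPM in WT, above the macrophage markers in every library. Most of this sum was the immunoglobulin gene Ighm, with a mean of 22540 CPM in Fpr2KO and 26780 CPM in WT. The next highest B cell marker, Cr2, averaged 681 CPM in Fpr2KO and 644 CPM in WT. Erythroid markers summed to 4796 to 11220 CPM in Fpr2KO and 1726 to 6734 CPM in WT. Immediate early genes, which respond to tissue handling, summed to 14060 to 18240 CPM in Fpr2KO and 17150 to 25390 CPM in WT. The mitochondrial share of counts was 3.22% to 6.04% in Fpr2KO and 4.83% to 6.09% in WT. In bulk samples, fewer cells of a type and less RNA per cell cannot be told apart.

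By edgeR's quasi-likelihood test, 0 of 10 ligands were below the 0.05 false discovery rate (FDR, Benjamini-Hochberg adjustment over all genes), a threshold that 0.0682% of all genes tested passed. The CC chemokines Ccl2, Ccl3, Ccl4, Ccl6 and Ccl9 and the neutrophil attractant Cxcl2 had lower estimates in Fpr2KO, each with an unadjusted p under 0.05. Of all genes tested, 46.8% had a lower estimate. The lower ligands make 6 of 10, against 4.92% of all genes tested that were lower at this unadjusted p. The ligands were chosen with earlier results of these data known, and several varied together across libraries. The 6 are therefore not independent of each other or of these data. The other ligands, Ccl5, Ccl24, Cxcl10 and Cxcl16, had higher estimates with wide intervals, and 0 of 10 was higher at an unadjusted p under 0.05, against 4.88% of all genes. DESeq2 placed 3 ligands past its FDR, Ccl2, Ccl3 and Ccl9, all lower in Fpr2KO, where 1.26% of all genes passed and 0.675% passed as lower. Limma voom placed 0 past its FDR, where 0.0886% of all genes passed. The median log2 fold change was -0.49 over the 10 ligands and 0.01 over all genes tested.

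**Figure D1:**
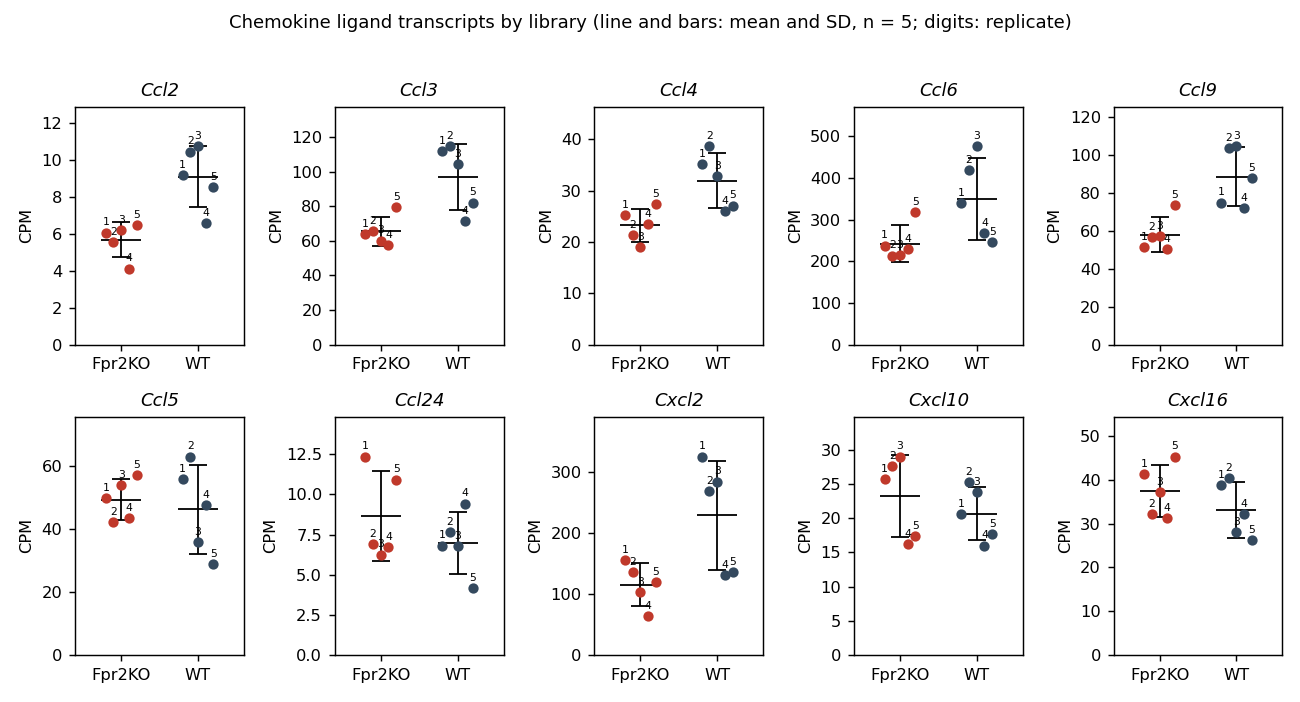
CPM of each of the 10 ligands in every library, with Fpr2KO on the left and WT on the right of each panel. Points are libraries, digits their replicate numbers, and black lines the mean and SD (n = 5). Ccl2 is the ligand whose Fpr2KO points (4.10 to 6.47 CPM) all lie below its WT points (6.57 to 10.7 CPM).

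Ccl2 encodes the monocyte attractant MCP-1, the main ligand of Ccr2. It was measured at 6.05, 5.52, 6.19, 4.10 and 6.47 CPM in Fpr2KO replicates 1 to 5, against 9.16, 10.4, 10.7, 6.57 and 8.52 CPM in WT replicates 1 to 5. Every Fpr2KO library was below every WT library, though Fpr2KO replicate 5 and WT replicate 4 were nearly level. Among all genes tested, 0.566% showed such a complete separation in this direction. Its log2 fold change was -0.68 (SE 0.16, edgeR FDR = 0.177), and DESeq2 gave an FDR of 0.016. The counts behind it are the smallest of the 6 lower ligands, 494 reads over the Fpr2KO libraries and 785 over the WT libraries. The transcript Gm17268, annotated on the opposite strand of Ccl2, had 0 reads.

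Ccl3 and Ccl4 encode the macrophage inflammatory proteins MIP-1 alpha and MIP-1 beta. Ccl3 binds Ccr1. Ccl3 was measured at 63.8, 65.7, 60.1, 57.7 and 79.7 CPM in Fpr2KO, against 112, 115, 104.5, 71.6 and 82.0 CPM in WT. Only Fpr2KO replicate 5 lay above the lowest WT library, replicate 4. Ccl3 had a log2 fold change of -0.57 (SE 0.13, edgeR FDR = 0.165). It passed with DESeq2 (FDR = 0.0115), without WT replicate 4 (edgeR FDR = 0.0436, where 0.175% of genes passed) and with no filter on low counts (edgeR FDR = 0.0493, where 0.217% of genes passed). Ccl4 was measured at 25.2, 21.3, 19.0, 23.5 and 27.3 CPM in Fpr2KO, against 35.1, 38.6, 32.7, 25.9 and 27.1 CPM in WT. Again 4 of 5 Fpr2KO libraries lay below every WT library and replicate 5 did not. The log2 fold change of Ccl4 was -0.46 (SE 0.13, edgeR FDR = 0.242), and it did not pass in any alternative fit run. The neighbouring genes kept a similar proportion to each other: 2.83 ± 0.321 Ccl3 reads per Ccl4 read in Fpr2KO and 3.03 ± 0.178 in WT (SD, n = 5), with overlapping ranges.

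Ccl6 and Ccl9 are chemokines of rodents that bind Ccr1, and both are made by myeloid cells without stimulation. Ccl6 was measured at 238, 213, 214, 229 and 318 CPM in Fpr2KO, against 339, 419.5, 476, 268 and 247 CPM in WT. Fpr2KO replicate 5 stood above the other Fpr2KO libraries and above WT replicates 4 and 5. The estimate for Ccl6 was a log2 fold change of -0.53 (SE 0.18, edgeR FDR = 0.384). Ccl9 was measured at 51.5, 56.8, 57.1, 50.6 and 73.7 CPM in Fpr2KO, against 74.9, 104, 104.7, 72.0 and 88.0 CPM in WT. Apart from Fpr2KO replicate 5, which lay between WT replicates 4 and 1, each Fpr2KO library was below every WT library. Ccl9 had the smallest p of the 10 ligands, ranking 34 among all genes tested (log2 fold change -0.61, SE 0.13, edgeR FDR = 0.121). It passed with DESeq2 (FDR = 0.00317) and with no filter on low counts (edgeR FDR = 0.0183). The number of Ccl6 reads per Ccl9 read was 4.19 ± 0.414 in Fpr2KO and 3.93 ± 0.719 in WT (SD, n = 5).

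Cxcl2 encodes MIP-2, a ligand of Cxcr2 that draws neutrophils. It was measured at 155, 135, 103, 63.5 and 119 CPM in Fpr2KO, against 325, 268, 284, 130.4 and 136 CPM in WT. WT replicates 4 and 5 were within the range of the Fpr2KO libraries, and WT replicates 1, 2 and 3 were well above it. Cxcl2 had the lowest fold change of the 10 ligands, 0.503 on a linear scale (log2 -0.99), and also the largest SE, 0.33 (edgeR FDR = 0.395). Its coefficient of variation was 30.2% in Fpr2KO and 39.2% in WT. Among other Cxcr2 ligands, the platelet chemokine Ppbp averaged 6.43 ± 1.91 CPM in Fpr2KO and 12.8 ± 3.53 CPM in WT (SD, n = 5), with a log2 fold change of -1.0 (edgeR FDR = 0.165, DESeq2 FDR = 0.00436). Cxcl1 averaged 2.35 ± 1.18 CPM in Fpr2KO and 3.44 ± 1.86 CPM in WT, and Cxcl3 0.655 ± 0.431 CPM in Fpr2KO and 1.33 ± 0.711 CPM in WT (SD, n = 5). Cxcl1 and Cxcl3 did not pass (edgeR FDR = 0.731 and 0.518).

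Ccl5, or RANTES, is a ligand of Ccr1 and Ccr3 made by T cells, NK cells and macrophages. It was measured at 49.7, 42.1, 53.8, 43.3 and 56.9 CPM in Fpr2KO, against 55.8, 62.9, 35.8, 47.5 and 28.7 CPM in WT. The Fpr2KO libraries lay inside the WT range, which was wider (coefficient of variation 13.1% in Fpr2KO and 30.4% in WT). Ccl5 had a log2 fold change of 0.09, with a 95% interval of -0.28 to 0.46 (edgeR FDR = 0.897). Without WT replicate 5 it was -0.046. Beside it, NK and T cell markers summed to 199.6 to 225 CPM in Fpr2KO and 169.9 to 224.5 CPM in WT. The largest part of these sums was Cd4, with a mean of 102 CPM in Fpr2KO and 107 CPM in WT. The T cell receptor complex genes Cd3e and Trac averaged 2.50 and 3.70 CPM in Fpr2KO, and 1.87 and 2.65 CPM in WT. The sums therefore follow Cd4 more than these genes and do not by themselves measure T or NK cell content. WT replicates 3 and 5, lowest for Ccl5, were also lowest for these sums. Dendritic cell markers were lowest in the same WT replicates, at 972.8 and 891.4 CPM. The part of either cell type in the Ccl5 values was not tested.

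Ccl24, or eotaxin-2, draws eosinophils through Ccr3. It was measured at 12.4, 6.91, 6.25, 6.72 and 10.9 CPM in Fpr2KO, against 6.81, 7.67, 6.79, 9.42 and 4.14 CPM in WT. Fpr2KO replicates 1 and 5 were above every WT library and the other Fpr2KO libraries were within the WT range. Ccl24 had a log2 fold change of 0.31 (95% interval -0.15 to 0.77, edgeR FDR = 0.685).

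Cxcl10, or IP-10, is an interferon-induced ligand of Cxcr3. It was measured at 25.8, 27.7, 29.0, 16.2 and 17.4 CPM in Fpr2KO, against 20.6, 25.2, 23.8, 16.0 and 17.7 CPM in WT. In each group replicates 4 and 5 were the lowest. Fpr2KO replicates 1, 2 and 3 lay above every WT library, and Fpr2KO replicates 4 and 5 lay in the lower part of the WT range. The log2 fold change of Cxcl10 was 0.17 (95% interval -0.18 to 0.52, edgeR FDR = 0.78). Cxcl9, another interferon-induced Cxcr3 ligand, had a log2 fold change of 0.21 (SE 0.19, edgeR FDR = 0.724). Cxcl16 encodes a membrane-bound ligand of Cxcr6 that Adam10 can release by cleavage. It was measured at 41.3, 32.1, 37.2, 31.2 and 45.4 CPM in Fpr2KO, against 38.8, 40.4, 28.1, 32.2 and 26.2 CPM in WT. No Fpr2KO library lay below the WT range, and replicates 1 and 5 lay above it. Cxcl16 had a log2 fold change of 0.18 (95% interval -0.09 to 0.45, edgeR FDR = 0.69). Intervals of this width do not show that Ccl5, Ccl24, Cxcl10 or Cxcl16 were equal in the groups.

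**Figure D2:**
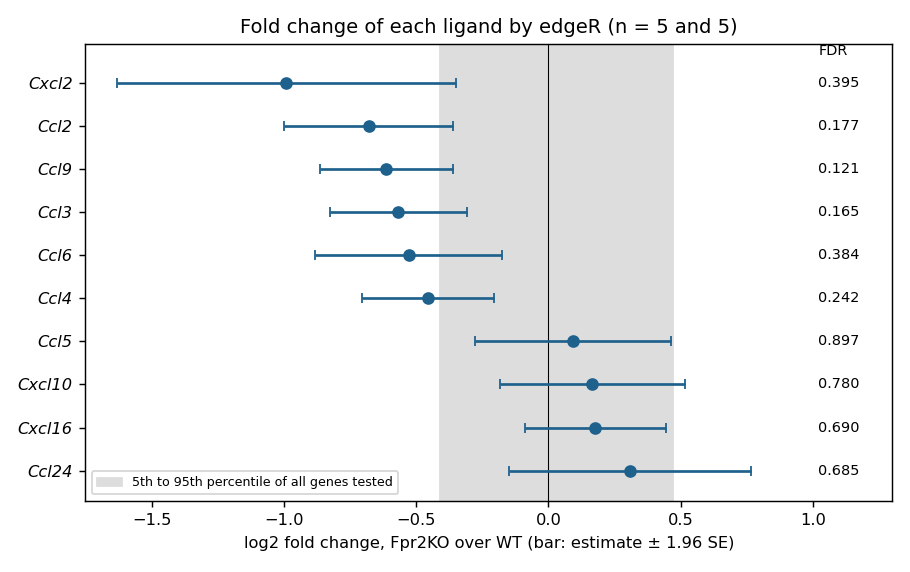
Log2 fold change of each ligand, Fpr2KO over WT, with bars for the 95% interval and the edgeR FDR at the right. The grey band spans the 5th to the 95th percentile of all genes tested (-0.41 to 0.47). The estimates of Cxcl2, Ccl2, Ccl9, Ccl3, Ccl6 and Ccl4 lie left of the band, and those of Ccl5, Cxcl10, Cxcl16 and Ccl24 lie inside it.

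Levels of different ligands were compared as CPM per kilobase of the reference protein-coding transcript. Ccl6 stood first in both groups, at 168 ± 30.3 CPM per kilobase in Fpr2KO and 243 ± 67.95 in WT (SD, n = 5). In Fpr2KO it was followed by Cxcl2 (104), Ccl5 (92.4) and Ccl3 (85.4), neighbours whose library ranges overlapped in that order, then by Ccl4 (35.2), Cxcl10 (21.2), Ccl9 (19.3), Cxcl16 (13.9), Ccl2 (6.97) and Ccl24 (6.67). In WT the order after Ccl6 was Cxcl2 (206), Ccl3 (126.5), Ccl5 (86.7), Ccl4 (48.3), Ccl9 (29.5), Cxcl10 (18.9), Cxcl16 (12.3), Ccl2 (11.2) and Ccl24 (5.38). The ranges of neighbours did not overlap in Fpr2KO between Ccl6 and Cxcl2, Ccl3 and Ccl4, Ccl4 and Cxcl10, Ccl9 and Cxcl16, or Cxcl16 and Ccl2. In WT they did not overlap between Ccl4 and Ccl9, Ccl9 and Cxcl10, or Ccl2 and Ccl24. Counted over the length of all annotated exons, which include retained introns, several ranks turned. Cxcl2 came to 55.7 CPM per kilobase in Fpr2KO and 111 in WT, below Ccl3 in both groups. Ccl5 came to 51.2 in Fpr2KO and 48.05 in WT, just below Ccl4 (48.3) in WT. Cxcl10 came to 10.3 in Fpr2KO and 9.18 in WT, below Ccl9 and Cxcl16 in both groups. Ccl2 came to 4.98 in Fpr2KO, below Ccl24 (6.67), and to 7.98 in WT, above Ccl24 (5.38).

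**Figure D3:**
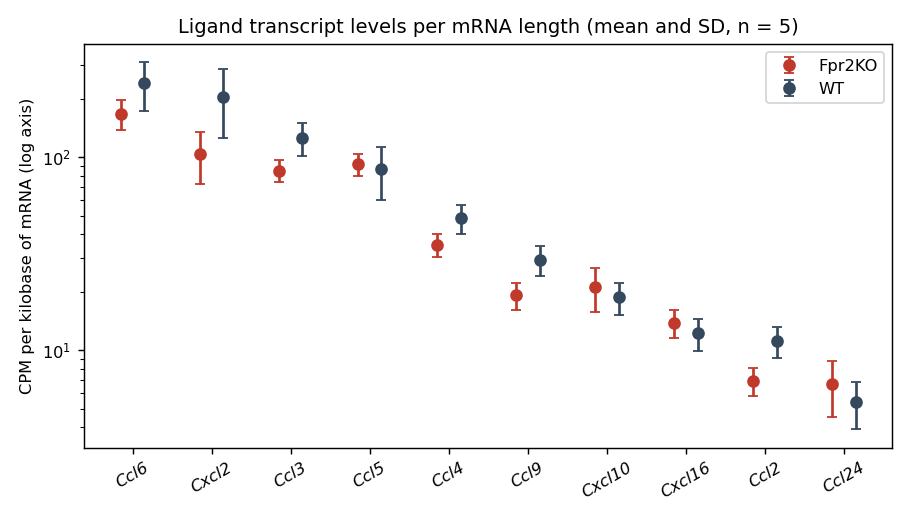
Level of each ligand as CPM per kilobase of mRNA on a log axis, mean and SD of 5 libraries, with Fpr2KO left of WT. From Ccl6 to Ccl24 the WT means run from 243 to 5.38 CPM per kilobase.

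Across libraries the ligands did not vary as a single block. Fpr2KO replicate 5 was the highest Fpr2KO library for 7 of 10 ligands and Fpr2KO replicate 4 the lowest for 6. WT replicate 2 was the highest WT library for 5 ligands, WT replicate 4 the lowest for 6 and WT replicate 5 the lowest for the other 4. For Ccl2, Ccl3, Ccl4, Ccl6, Cxcl2 and Cxcl10, WT replicates 1, 2 and 3 all lay above WT replicates 4 and 5. The share of all genes tested with this order was not counted, and some of the other gene lists share genes. In 6 of 16 other gene lists the sums of WT replicates 1, 2 and 3 were likewise all above those of WT replicates 4 and 5. Neutrophil markers were among them, with sums of 1675, 1424 and 1552 CPM in replicates 1, 2 and 3 and of 1033 and 1027 CPM in replicates 4 and 5. NF-kB genes were too, with sums of 6237, 5298 and 4903 CPM in WT replicates 1, 2 and 3 and of 3712 and 3799 CPM in replicates 4 and 5. By mean log2 CPM instead of sums, the neutrophil, NF-kB and immediate early lists kept this order. The chemokine receptor, platelet and mitochondrial lists lost it, and the list for chemokine cleavage, binding and retention gained it. Classical monocyte markers did not follow this order, with sums of 1483, 1487, 1644, 1497 and 2004 CPM in WT replicates 1 to 5. Fpr2KO replicate 4, lowest for 6 ligands, also had the lowest sum of its group in 11 of the 16 other gene lists. These include macrophage markers (10060 CPM), erythroid markers (4796 CPM), interferon genes (1505 CPM), neutrophil markers (594.9 CPM) and NF-kB genes (3124 CPM). The part of these genes in the ligand differences was not tested.

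**Figure D4:**
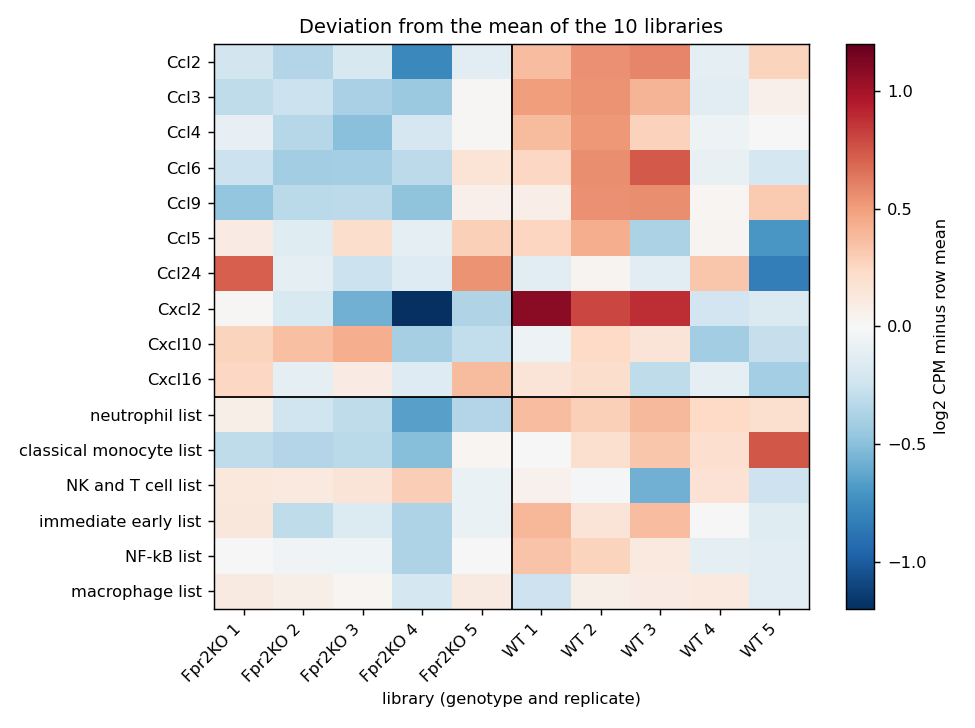
Log2 CPM of each ligand (upper rows) and mean log2 CPM of 6 gene lists (lower rows) in each library, as the deviation from the row's mean over the 10 libraries, Fpr2KO left of the vertical line. Cxcl2 runs from -1.27 in Fpr2KO replicate 4 to 1.08 in WT replicate 1, and Ccl5 is lowest in WT replicate 5 (-0.69).

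Promoter windows of Cxcl2 and Cxcl10 are printed because both hold NF-kB letters while their estimates differ in sign. The interval of Cxcl10 (log2 fold change -0.18 to 0.52) spans both signs, so its direction is not determined. Neither gene passed the edgeR FDR (0.395 for Cxcl2 and 0.78 for Cxcl10). A role of these letters in either estimate was not tested. The windows are from RefSeq on GRCm38.p6 and span the bases from 250 to 31 before the annotated start. Promoters of 5 of the 10 ligands were found in the table used: Ccl3, Ccl6, Ccl9, Cxcl2 and Cxcl10. Searched on both strands were an NF-kB form (GGG, any 3 bases, TTCC), the AP-1 form TGANTCA and an interferon response form (GAAA, any 2 bases, GAAA). Capitals mark the matches.
Cxcl2, chr5:90903649-90903868, plus strand: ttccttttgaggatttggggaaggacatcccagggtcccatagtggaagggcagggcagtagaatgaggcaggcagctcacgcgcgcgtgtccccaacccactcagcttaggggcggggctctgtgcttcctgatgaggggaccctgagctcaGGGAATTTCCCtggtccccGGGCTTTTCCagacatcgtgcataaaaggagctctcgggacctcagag
Cxcl10, chr5:92348920-92349139, minus strand: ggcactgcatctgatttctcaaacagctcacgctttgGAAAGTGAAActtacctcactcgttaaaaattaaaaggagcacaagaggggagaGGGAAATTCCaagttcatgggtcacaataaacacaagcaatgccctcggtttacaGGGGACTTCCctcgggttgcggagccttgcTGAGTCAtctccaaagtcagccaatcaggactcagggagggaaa
The Cxcl2 window held 3 matches to the NF-kB form, of which 2 overlap in a single run of capitals. The Cxcl10 window held 2 matches to it, 1 to the AP-1 form and 1 to the interferon form. The Ccl9 window held 1 AP-1 match, and those of Ccl3 and Ccl6 held 0 matches to any of the 3 forms. Sites of other forms or outside the windows were not searched, so 0 matches does not show that a gene lacks such sites. Of 32851 promoter windows of this length, 3.84% held the NF-kB form, 6.12% the AP-1 form and 2.63% the interferon form.

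Among 28 other chemokine ligand genes, 14 had enough reads to be tested and 3 (Ccl20, Ccl26 and Cxcl17) had 0 reads. None passed the FDR of 0.05 by edgeR, and DESeq2 called 1, Ppbp, where 1.26% of all genes passed. At an unadjusted p under 0.05, 2 were lower and 0 higher, against 4.92% and 4.88% of all genes tested. The 2 lower ones, Ppbp and Pf4, are platelet chemokines. Pf4 averaged 2.46 ± 1.25 CPM in Fpr2KO and 4.17 ± 0.76 CPM in WT (SD, n = 5). Platelet markers, a list that includes both genes, summed to 76.5 to 110 CPM in Fpr2KO and 90.0 to 128 CPM in WT. The median log2 fold change of the 14 was -0.02. Ccl22, a ligand of Ccr4, and the stromal chemokines Cxcl12 and Cxcl13 had estimates of 0.22, -0.14 and -0.01.

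Of 23 chemokine receptor genes 19 were tested, and none passed the FDR by edgeR or DESeq2. At an unadjusted p under 0.05, 4 were lower (Cxcr4, Cxcr2, Ccr1 and Ccrl2), against 4.92% of all genes, and 3 higher (Ccr10, Cxcr6 and Ccr6), against 4.88%. Among receptors of the 10 ligands, Ccr1 averaged 25.7 ± 8.62 CPM in Fpr2KO and 38.1 ± 8.47 CPM in WT (log2 fold change -0.57, SE 0.24). Cxcr2, a receptor of neutrophils that is also in the neutrophil list, averaged 36.0 ± 12.2 CPM in Fpr2KO and 55.5 ± 9.2 CPM in WT (log2 fold change -0.63, SE 0.24). Cxcr6 averaged 1.90 ± 0.6 CPM in Fpr2KO and 1.15 ± 0.344 CPM in WT (log2 fold change 0.72, SE 0.28). Ccr2 had a log2 fold change of -0.37 (SE 0.27), Ccr3 of 0.16 (SE 0.12) and Cxcr3 of 0.41 (SE 0.21). Of 12 genes for chemokine cleavage, binding and retention, 11 were tested and none passed by edgeR. The gelatinase Mmp9, also a neutrophil marker, was the single gene lower at an unadjusted p under 0.05 and the single gene DESeq2 called. Adam10 and Adam17, which cleave Cxcl16 and other membrane proteins, had estimates of -0.02 and -0.10.

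Genes of 2 pathways that induce chemokines, their targets and feedback genes included, were read as lists. Beside the counts that follow, the shares over all genes tested were 4.92% lower and 4.88% higher at an unadjusted p under 0.05, 46.8% with a lower estimate and 1.26% called by DESeq2. Of 22 genes of NF-kB signalling and its targets, 0 passed the FDR by edgeR, 15 had lower estimates, 6 were lower at an unadjusted p under 0.05 and DESeq2 called Nlrp3. The 6 were Nlrp3, Nfkbiz, Tlr2, Ptgs2, Nfkbia and Tnfaip3, with estimates from -0.69 (Ptgs2) to -0.38 (Tlr2). The median of the list was -0.14. Of 20 interferon pathway genes, 0 passed by edgeR or DESeq2, and 1, the interferon gamma receptor subunit Ifngr1, was lower at an unadjusted p under 0.05, a share near that of all genes. Their median was -0.03.

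Markers of other cells were read beside these, and the same shares over all genes apply. In the neutrophil list 16 genes were tested, all with lower estimates (median -0.64), 11 at an unadjusted p under 0.05. In the classical monocyte list all 10 had lower estimates (median -0.67), 6 of them at an unadjusted p under 0.05. The medians of the other lists were -0.51 for platelets, -0.30 for eosinophils, basophils and mast cells, and 0.24 for NK and T cells. They were 0.21 for B cells, 0.02 for dendritic cells, 0.99 for erythroid cells and 0.04 for macrophages. Immediate early genes had a median of -0.35 and mitochondrially encoded genes of -0.37. No gene of these lists passed the FDR by edgeR. At an unadjusted p under 0.05, 4 platelet, 1 eosinophil, basophil and mast cell, 13 immediate early and 5 mitochondrial genes were lower, and 13 erythroid and 3 B cell genes were higher. In the macrophage list Siglec1 was lower and Cd163 higher at this p, and in the NK and T cell and dendritic cell lists 0 genes reached it. DESeq2 called 6 neutrophil, 3 classical monocyte, 3 immediate early, 2 erythroid, 2 macrophage and 1 platelet gene. Ligands such as Ccl3, Ccl6, Ccl9 and Cxcl2 are also made by neutrophils or monocytes. The part of these cells in the difference of any ligand, Ccl2 and Ccl4 included, was not tested.

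The genes whose pattern over the 10 libraries was most like that of the 3 ligands with the smallest p were found by Pearson's r of log2 CPM after subtracting each group's mean, over 11254 genes. For Ccl9 they were Pirb (r = 0.97), Man2b1 (0.95), Nol4l (0.94), Lrp1 (0.94) and Prkch (0.93). For Ccl3 they were Phka2 (r = 0.96), Mob3b (0.96), Pot1b (0.95), Sgms2 (0.95) and Trim16 (0.95). For Ccl2 they were Alpk1 (r = 0.97), Notch1 (0.97), Crybg3 (0.95), Arrdc4 (0.95) and Map3k3 (0.95). Among the 45 pairs of ligands, Ccl5 with Cxcl16 (r = 0.91) and Ccl3 with Ccl4 (r = 0.85) were the most alike, and Ccl24 with Cxcl10 (r = -0.07) the least. These values describe 10 libraries, which share depth and cell mixture between genes.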

How the data were processed

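The authors deposited whole-number read counts for each Ensembl identifier, with no normalisation. The submitters' processing notes name HTSeq 0.10.0, FastQC 0.10.1 and the builds mm10 and GRCm38. For the counting, neither aligner, strand setting nor annotation is given in the sources used here. Extraction used a Qiagen RNeasy kit and library preparation an NEBNext Ultra II RNA kit, per the labels' protocols. Symbols, coordinates and lengths came from GENCODE M21, which matched 52133 of 55414 identifiers. The rest held between 0.0564% and 0.135% of a library's counts.

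Counts were analysed with edgeR 4.0.16 in R 4.3.3 (filterByExpr, TMM, glmQLFit with robust=TRUE, glmQLFTest, two-sided, no covariate, Benjamini-Hochberg over 14669 genes). The SE is the log2 fold change divided by the square root of F, and 95% intervals are normal approximations from it. Log2 CPM used a prior count of 2. Within each group, every pair of libraries differed beyond sampling noise (chi-square per degree of freedom 11.2 to 60.9), so none was taken as a library deposited again. This does not show that they came from separate animals. Alternatives were RLE and upper quartile scaling, no filter, a filter of 1 CPM in 5 libraries, DESeq2 1.42.0, limma voom 3.58.1, a replicate block and leaving out each library. The fit was tested on simulated data for this comparison (14475 genes), with 50 genes changed at each of 1.5-, 2-, 3- and 4-fold. Of genes changed by 1.5-fold 36% were recovered, and of those changed by 2-fold 74%, with 10 false among 157 calls. In the real data 10 genes passed the FDR. With more genes changed the FDR threshold is easier to reach, so these shares can overstate what the real comparison could call.

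The ligands and the 16 other gene lists were chosen with earlier results of these data known. Named were all ligands, Fpr2, receptors of the ligands (1 is not reported here), up to 4 genes of a list by p, and the 5 genes most alike (mean log2 CPM at least 1). Other list members named, among them Ccl22, Cxcl9, Cxcl12, Cxcl13, Adam10 and Adam17, were added for their roles or for their p after values were seen.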

Additional observations from a re-analysis of the deposited data

Results flagged for a closer look

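In 2 of the 20 sets of 5 libraries (10 ligands in 2 groups), the highest library stood far from the others by Dixon's criterion for 5 values, which chance exceeds in about 1 set of 20. Both were Fpr2KO replicate 5: Ccl6 at 318.3 CPM, where the group median was 229 CPM, and Ccl9 at 73.74 CPM, where the group median was 56.8 CPM. This library was also the highest Fpr2KO library for Ccl2, Ccl3, Ccl4, Ccl5 and Cxcl16, had the highest classical monocyte marker sum of its group (1386 CPM) and the lowest mitochondrial share of all libraries (3.22%). Without it the log2 fold change was -0.65 for Ccl6 (edgeR FDR = 0.225) and -0.72 for Ccl9 (edgeR FDR = 0.0626).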

How the results depend on the processing

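The 6 ligands with lower estimates kept that direction in all 17 alternatives, and 5 to 6 ligands were lower at an unadjusted p under 0.05 in each, with 0 higher. The median log2 fold change of the ligands ranged from -0.58 to -0.42. With no filter 2 ligands (Ccl3 and Ccl9) and 62 genes passed the FDR, with DESeq2 3 ligands (Ccl2, Ccl3 and Ccl9) and 185 genes. Without the filter 28615 genes were tested. Leaving out 1 library gave 0 to 1 ligands and 8 to 51 genes, and the single call was Ccl3 without WT replicate 4. The 51 genes came without WT replicate 5, and 26 each without WT replicate 4 and without Fpr2KO replicate 2. Ccl5 reversed to -0.046 without WT replicate 5 (edgeR FDR = 0.939, against 0.766 to 0.99 over its alternatives), and leaving out 1 library gave it values up to 0.23. With the replicate number as a block, 1 ligand (Ccl9, FDR = 0.0369) and 64 genes passed, against 0 and 10. Same-numbered libraries correlated between -0.239 and 0.291 in their deviations from the group means, so the numbers are not taken to pair the samples. For these changes the cause was not tested. Ccl2 and Ccl24 had the fewest reads of the ligands. In the simulated data changes of 1.5-fold were called in 36% of cases. More genes were changed there than passed in the real data, so this share can overstate the power for the ligands.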
